A study of Mus musculus with 12 samples.

Results

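Curcumin, a polyphenol of turmeric, was given to mice with AOM- and DSS-induced colon disease, and the colon epithelium of these mice was compared with that of mice given AOM and DSS alone. The 8 libraries compared were those the labels title AOMDSSCurcumin and AOMDSS, 4 of each, out of 12 in the series, and 11759 of 24391 genes reached 1 FPKM in at least 4 of the 8 and were tested. All mice were C57BL/6 and 18 weeks of age. The AOM/DSS group had received azoxymethane (AOM), a carcinogen, and dextran sulfate sodium (DSS), an agent that inflames the colon. The curcumin group had received both agents and curcumin, and the third group, labelled control, is used here as background. The source is given as colon epithelial cells scraped from the mucosa of the colon left after the proximal segment and right-sided tumours had been taken out. The values therefore describe the scraped mucosa and not the removed tumours, and whether other tumour tissue was scraped with it was not tested. Doses, times of treatment and sex are not given in the sources used here, and the labels do not state that each library came from its own animal, so p-values measure the spread between these samples, which may be technical.

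The surface colonocyte absorbs sodium, chloride, water and nutrients through a set of apical exchangers and channels, and loses many of them when the epithelium is inflamed. The inflamed epithelium in turn makes hydrogen peroxide and nitric oxide through Duox2 and Nos2, and turns on interferon-induced genes. Curcumin is an electrophile and a metal chelator that has been described as an inducer of Nrf2-dependent detoxifying enzymes and as an inhibitor of NF-kappaB signalling. The gene groups below follow these roles: absorption, epithelial defence, detoxification, timing, stress, proliferation and metabolism.

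Values are FPKM (fragments scaled to gene length and to library size), given for replicates 0, 1, 2 and 3 of a group in that order, and a mean is followed by its SD over 4 libraries. A log2 difference is curcumin minus AOM/DSS on the scale of log2(FPKM + 1), which understates the change of low genes. Adjusted p-values come from limma with Benjamini-Hochberg adjustment over the 11759 genes, and a gene is called where this is below 0.05. The 8 libraries held 8644331 to 15968416 recovered reads each and 16066 to 17127 genes above 0. In replicates 0 and 1 of both groups GC-rich genes read higher than in the other libraries, and in replicates 2 and 3 AT-rich genes did, so differences are also given within the GC-rich and within the AT-rich libraries, each with 2 libraries against 2. All 13 epithelial identity markers were tested and 0 were called, and their summed level was 7604 to 11290 FPKM in AOM/DSS and 7631 to 13400 in curcumin. Epithelial markers were therefore expressed in every library, at summed levels that overlapped between the groups, and no other tissue was compared. Among them were Cdh1 (-0.15, adjusted p = 0.629) and Cdx2 (-0.45, adjusted p = 0.626).

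Curcumin libraries differed from AOM/DSS libraries at 132 genes (1.12% of those tested), 90 of them higher (0.765%) and 42 lower (0.357%). The unadjusted p was below 0.05 for 1696 genes (14.4%). All 4 curcumin libraries lay above all 4 AOM/DSS libraries at 583 genes (4.96%) and below them at 500 (4.25%). Counts of list members given below stand beside these shares over all tested genes. The median log2 difference of the called genes was 1.08 for those higher and -0.94 for those lower, and it was 1.17 and -0.95 within the GC-rich libraries and 1.01 and -0.97 within the AT-rich libraries. Since these libraries chose the genes, their direction in each GC group is a description. The number of calls rested on single libraries: it was 38 higher and 15 lower without curcumin replicate 2, 41 and 24 without curcumin 0, 43 and 16 without curcumin 1, 60 and 27 without curcumin 3 and 57 and 46 without AOM/DSS 0.

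**Figure D1:**
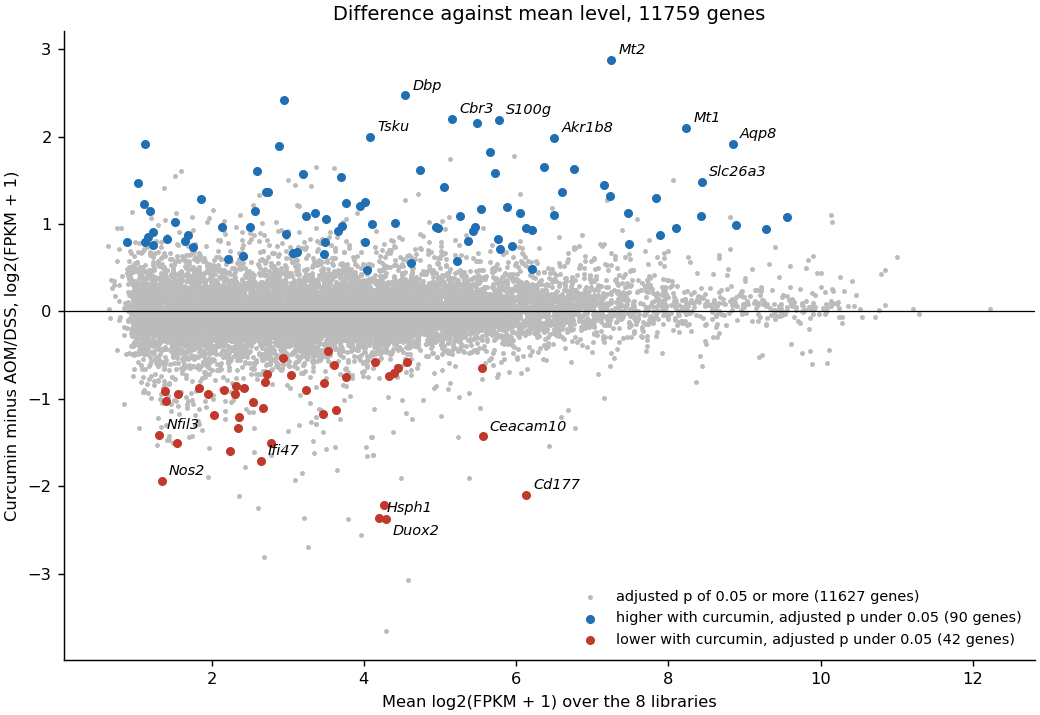
Log2 difference (curcumin minus AOM/DSS, log2(FPKM + 1)) against the mean log2(FPKM + 1) of the 8 libraries for 11759 genes. Blue points are the 90 genes called higher and red points the 42 called lower with curcumin, and Mt2, Mt1, Aqp8 and Slc26a3 stand at the upper right, among the highly expressed genes that rose.

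Several absorptive genes of the surface colonocyte were higher with curcumin. Of 26 tested genes of ion and water transport, 5 rose and 0 fell, with a median log2 difference of 0.42 against -0.0045 over all tested genes, and 4 of 14 genes of nutrient, calcium and phosphate handling rose and 0 fell (median 0.39). The chloride/bicarbonate exchanger Slc26a3, which takes up chloride at the colon surface, was at 185, 249, 299 and 133 FPKM in the AOM/DSS libraries and at 588, 507, 589 and 646 in the curcumin libraries (log2 difference 1.48, SE 0.22, adjusted p = 0.00754). The water channel Aqp8 was at 259, 217, 332 and 167 against 1312, 746, 729 and 901 (log2 difference 1.92, SE 0.25, adjusted p = 0.00326). S100g, the calcium-binding calbindin-D9k, was at 17.4, 15.9, 33.2 and 39.2 against 111, 118, 191 and 72.2 (log2 difference 2.19, SE 0.33, adjusted p = 0.00797). For all 3 genes every curcumin library lay above every AOM/DSS library, and the gap was widest in ratio for Aqp8, whose highest AOM/DSS value was 332 and lowest curcumin value 729.

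The sodium pump regulator Fxyd4 had 44.3, 70.5, 62.6 and 22.0 FPKM in AOM/DSS and 158, 104, 200 and 138 in curcumin (log2 difference 1.65, SE 0.34, adjusted p = 0.0304), with AOM/DSS replicate 3 lowest. The carbonic anhydrases that feed the exchangers with protons and bicarbonate also rose. Car2 was at 487, 417, 563 and 355 against 780.1, 961, 908 and 814 (log2 difference 0.94, SE 0.15, adjusted p = 0.0118), and Car4 at 493, 706, 536 and 394 against 1702, 903, 915 and 1037 (log2 difference 1.08, SE 0.22, adjusted p = 0.0304). Curcumin replicate 0 stood well above the other curcumin libraries for Car4 and the rest lay close together. The sugar phosphate transporter Slc37a2 was at 29.7, 31.9, 38.8 and 11.9 against 114, 79.6, 71.2 and 121 (log2 difference 1.82, SE 0.36, adjusted p = 0.0283) and the phosphate transporter Slc20a1, which shares 13.1% of its exon bases with 9830144P21Rik, at 49.4, 80.6, 76.6 and 44.1 against 229, 188, 176 and 169.7 (log2 difference 1.63, SE 0.26, adjusted p = 0.0111). The peptide transporter Slc15a1 was at 40.8, 49.8, 59.9 and 30.1 against 112, 83.1, 88.9 and 108 (log2 difference 1.13, SE 0.20, adjusted p = 0.0163). No pair of groups overlapped for these transporters. The connexin Gjb5 (1.2, adjusted p = 0.0410), a subunit of gap junctions, was the 1 called gene among 22 of cell junctions, whose median difference was -0.0042. The proton/potassium pump Atp12a, at 102 ± 49.03 FPKM in AOM/DSS and 231 ± 50.8 in curcumin, did not pass (log2 difference 1.27, SE 0.33, adjusted p = 0.0933), although its groups did not overlap.

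Within GC groups the differences of the 9 called transport genes ran from 0.94 to 2.71 within the GC-rich libraries and from 0.94 to 2.13 within the AT-rich libraries. Control libraries had 624 ± 111 FPKM of Slc26a3, 151 ± 39.5 of S100g and 479 ± 111 of Aqp8. Against control, AOM/DSS was -1.57 (adjusted p = 0.00425) and curcumin -0.09 (adjusted p = 0.903) for Slc26a3, and -2.54 (adjusted p = 0.00371) and -0.34 (adjusted p = 0.711) for S100g. For Aqp8 they were -0.99 (adjusted p = 0.0727) and 0.93 (adjusted p = 0.146), so that the curcumin mean of Aqp8 stood above the control mean and those of Slc26a3 and S100g below it. These comparisons share libraries with curcumin against AOM/DSS and are given as background. The call of Fxyd4 ended when AOM/DSS 0 or any 1 curcumin library was left out (adjusted p up to 0.106). The call of Car4 ended when AOM/DSS 0, 2 or 3 or any 1 curcumin library was left out (adjusted p up to 0.0818). The call of Slc37a2 ended when AOM/DSS 0 or any 1 curcumin library was left out (adjusted p up to 0.0910). The call of Slc15a1 ended when curcumin 0 was left out (adjusted p up to 0.0560). The call of Gjb5 ended when control 0, 1 or 2, AOM/DSS 0, 1 or 3 or any 1 curcumin library was left out (adjusted p up to 0.123).

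**Figure D2:**
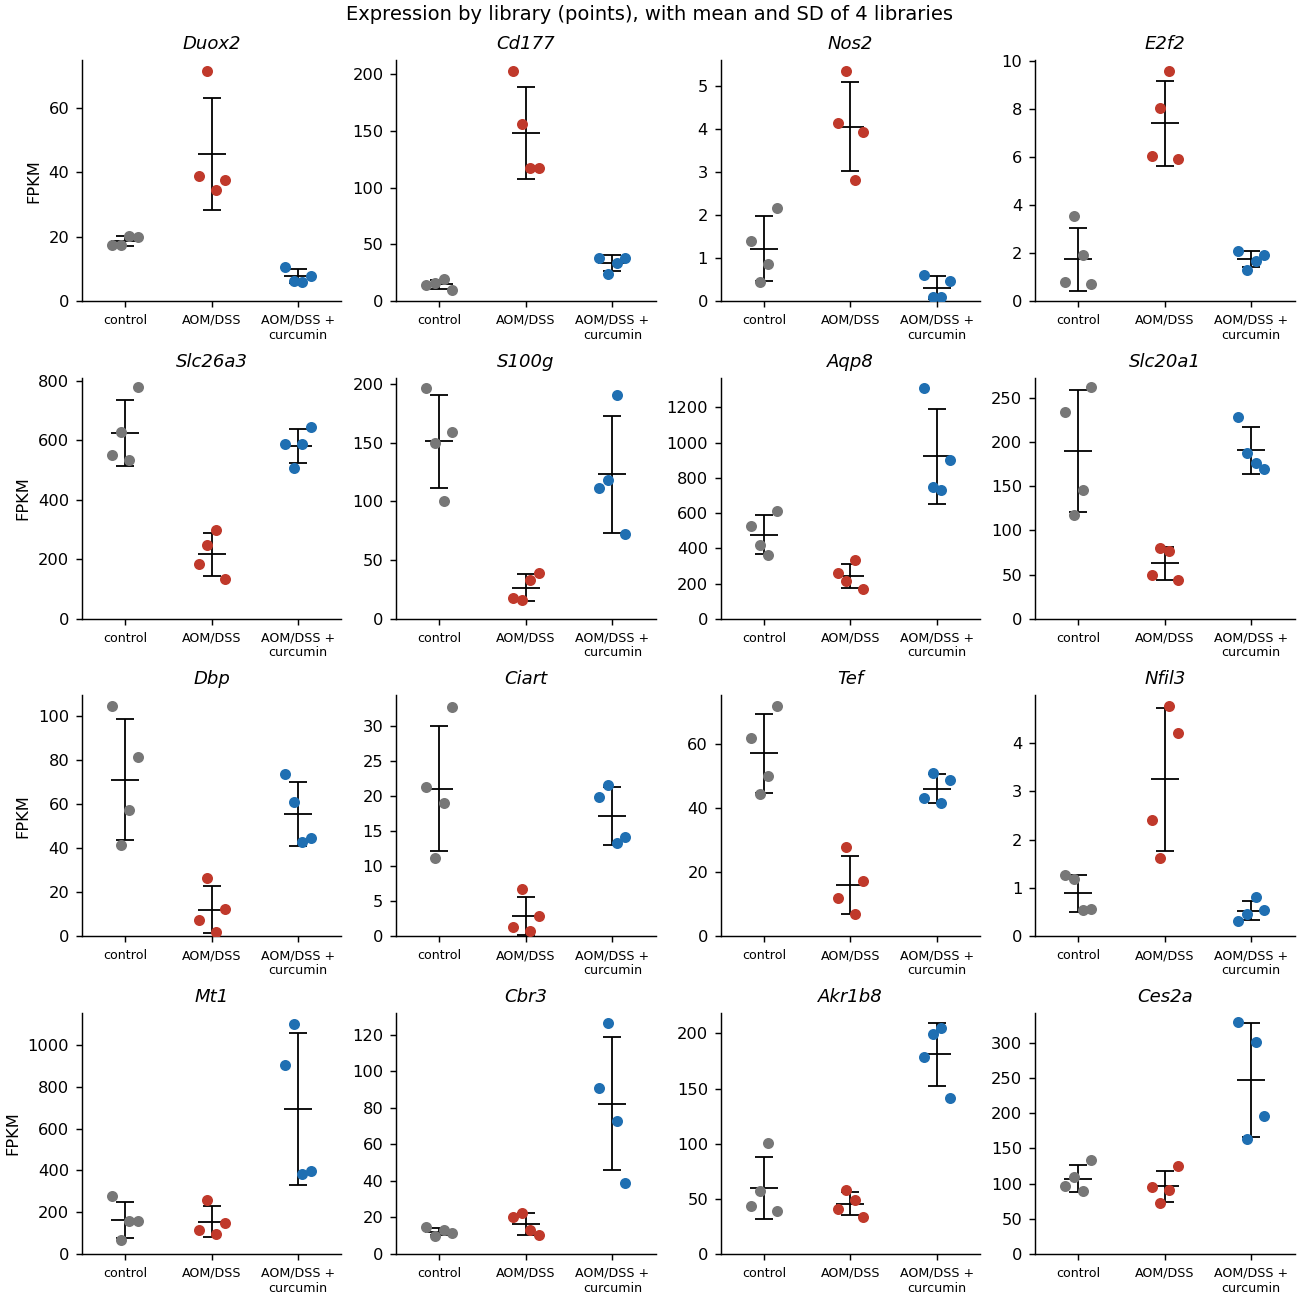
FPKM of 16 genes in each of the 12 libraries (points; grey control, red AOM/DSS, blue curcumin), with the mean and SD of 4 libraries; every vertical axis starts at 0. In each panel the 4 blue points lie all above or all below the 4 red points.

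The oxidase Duox2, its partner Duoxa2, the synthase Nos2 and the surface protein Cd177 were lower with curcumin. Of 18 tested genes of antimicrobial and oxidant defence, 4 fell and 0 rose, 9 had all curcumin libraries below all AOM/DSS libraries, and the median difference was -1.63. Over all tested genes 0.357% were called lower and 4.25% were lower without overlap. In this list 3 genes were higher in mean, among them Saa1 (0.48, adjusted p = 0.383) and Saa2 (0.57, adjusted p = 0.187). Reg3b (-3.07, adjusted p = 0.564) and Lyz1 (-2.36, adjusted p = 0.133), both antibacterial proteins of the gut, did not pass. Duox2, the oxidase that releases hydrogen peroxide toward the lumen, was at 38.7, 71.5, 34.4 and 37.5 FPKM in AOM/DSS and 10.8, 6.45, 5.98 and 7.9 in curcumin (log2 difference -2.37, SE 0.22, adjusted p = 0.000737). AOM/DSS replicate 1 was the highest library, and the lowest AOM/DSS value was above 3 times the highest curcumin value. Duoxa2, the factor that carries Duox2 to the cell surface, was at 35.7, 67.3, 25.6 and 42.4 against 18.7, 5.14, 5.73 and 6.7 (log2 difference -2.21, SE 0.34, adjusted p = 0.00889), but Duoxa1 covers 42.8% of its exon bases from the opposite strand, which leaves its reads uncertain. Nos2, the inducible nitric oxide synthase, was at 4.14, 5.34, 2.82 and 3.93 against 0.616, 0.103, 0.0933 and 0.468 (log2 difference -1.94, SE 0.24, adjusted p = 0.00326). Of the 8 libraries only those of AOM/DSS reached 1 FPKM, so Nos2 was tested through the group where it was high. Cd177, a GPI-anchored protein described first on neutrophils, was at 203, 156, 117 and 117 against 38.2, 23.8, 33.9 and 38.4 (log2 difference -2.09, SE 0.22, adjusted p = 0.000963). Ceacam10, a member of the CEA adhesion family, was at 98.98, 82.7, 63.9 and 64.5 against 26.2, 23.03, 32.9 and 30.1 (log2 difference -1.42, SE 0.18, adjusted p = 0.00326). Within GC groups the differences of these 5 genes ran from -1.84 to -2.52 within the GC-rich libraries and from -1.01 to -2.24 within the AT-rich libraries.

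Control means were 18.8 ± 1.54 FPKM for Duox2, 1.22 ± 0.749 for Nos2, 14.9 ± 3.76 for Cd177 and 15.7 ± 3.71 for Ceacam10. The curcumin means of Duox2 and Nos2 lay below these and those of Cd177 and Ceacam10 above. Curcumin minus control was -1.2 for Duox2 (adjusted p = 0.0518), -0.71 for Nos2 (adjusted p = 0.253), 1.13 for Cd177 (adjusted p = 0.0714) and 0.81 for Ceacam10 (adjusted p = 0.104), none of which passed. Plet1, a surface protein of epithelial progenitors, was at 31.1, 40.2, 25.1 and 36.1 FPKM in AOM/DSS and 10.4, 6.27, 15.3 and 19.7 in curcumin, without overlap, and did not pass (log2 difference -1.38, SE 0.38, adjusted p = 0.109).

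Neutrophil markers other than Cd177 were scarce: of the 11 on the list 2 were at 0 in all 8 libraries, and their summed level was 1.54 to 13.3 FPKM in AOM/DSS and 1.38 to 1.70 in curcumin. Cd177 alone exceeded that sum in every one of the 8 libraries.

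Genes of immune signalling were mostly lower in mean, with few calls. Of 10 interferon-inducible GTPases all were lower in mean (median -0.52) and 1 fell, Ifi47, which was at 6.99, 8.7, 11.7 and 15.7 FPKM in AOM/DSS and 2.18, 1.42, 3.11 and 3.56 in curcumin (log2 difference -1.71, SE 0.26, adjusted p = 0.00889; -1.67 within the GC-rich and -1.75 within the AT-rich libraries). Among 16 genes of NF-kappaB feedback (median -0.14) 1 fell, Nfkbiz, a nuclear inhibitor-like coactivator, at 11.4, 18.9, 21.6 and 12.5 against 7.55, 6.41, 5.77 and 5.78 (log2 difference -1.17, SE 0.23, adjusted p = 0.0250; -0.98 within the GC-rich and -1.36 within the AT-rich libraries). The subunit gene Nfkb1 was at 19.2, 20.6, 19.7 and 21.8 against 18.8, 16.7, 16.8 and 19.1 and did not pass (log2 difference -0.18, SE 0.10, adjusted p = 0.425). Of 9 tested cytokines and mediators 1 fell (median -0.15), which was Nos2, tested through its AOM/DSS values as given above. Tnf, at 0.123, 2.37, 0.738 and 1.46 FPKM in AOM/DSS and 0.194, 0.248, 0.0750 and 0.401 in curcumin, was below the expression filter and not tested. The same held for Il1b (1.22 ± 1.17 and 0.114 ± 0.0871) and Ptgs2 (0.116 ± 0.139 and 0.0112 ± 0.0224), and Il6 was listed at 0 in all 8 libraries. The call of Nfkbiz ended when AOM/DSS 1 or 2 or any 1 curcumin library was left out (adjusted p up to 0.0814).

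The 9 MHC class II genes were all lower in mean with curcumin (median -1.06), 4 of them without overlap, and 0 were called. Among all tested genes 4.25% were lower without overlap. Cd74, the chain that escorts class II molecules, was at 92.3, 149, 307 and 109 FPKM in AOM/DSS and 72.1, 30.7, 39.5 and 69.8 in curcumin (log2 difference -1.54, SE 0.46, adjusted p = 0.142), and H2-Eb1 at 12.9, 32.6, 63.1 and 19.4 against 17.2, 6.01, 7.73 and 6.61 (log2 difference -1.54, SE 0.46, adjusted p = 0.147). Both genes peaked in AOM/DSS replicate 2. Of 12 genes of MHC class I and the immunoproteasome 0 were called (median -0.12), with Psmb8 (-0.82, adjusted p = 0.187) and H2-Q7 (-0.58, adjusted p = 0.303) as the largest differences, and of 18 type I interferon genes 0 (median -0.32), with Zbp1 (-1.02, adjusted p = 0.131) and Ifit2 (-0.75, adjusted p = 0.570). The STAT3 and SOCS list (13 genes, median 0.016) had 0 calls, with Socs3 (-1.02, adjusted p = 0.523) and Socs1 (-0.60, adjusted p = 0.179), and Socs1 passed with the GC group as a covariate (adjusted p = 0.0424).

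Summed levels of some immune marker lists also differed between the groups. The summed level of 13 macrophage and dendritic markers was 51.1 to 83.2 FPKM in AOM/DSS and 32.8 to 50.1 in curcumin, and that of 12 B and plasma cell markers 126 to 187 and 99.5 to 116, both without overlap. Of the single markers, 0 of 7 tested B and plasma cell genes and 1 of 7 macrophage and dendritic genes were lower without overlap. In curcumin replicate 1 Jchain (0.195) and Cd79a (3.01) were a small part of the summed 99.5 FPKM. The B and plasma cell list also holds Xbp1, and the members that carried the rest are not given here. Its sum is therefore not a measure of B and plasma cells alone. For 16 T and NK cell markers the sums were 8.15 to 34.9 and 7.27 to 11.7. No marker of these 3 lists was at 0 in all 8 libraries. Single markers with the largest differences were C1qa (-1.13, adjusted p = 0.194) and C1qb (-1.06, adjusted p = 0.250) for macrophages, Jchain (-2.1, adjusted p = 0.314) and Cd79a (-1.22, adjusted p = 0.465) for B and plasma cells and Cd3g (-0.80, adjusted p = 0.187) and Lck (-0.51, adjusted p = 0.197) for T cells, and 0 of 7, 0 of 7 and 0 of 5 tested markers were called. Within GC groups the median of the macrophage list was -0.45 in the GC-rich and -1.61 in the AT-rich libraries. Fewer cells of a type and less RNA per cell cannot be told apart in such bulk samples, and the part of immune cells in the class II and interferon differences was not tested.

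**Figure D3:**
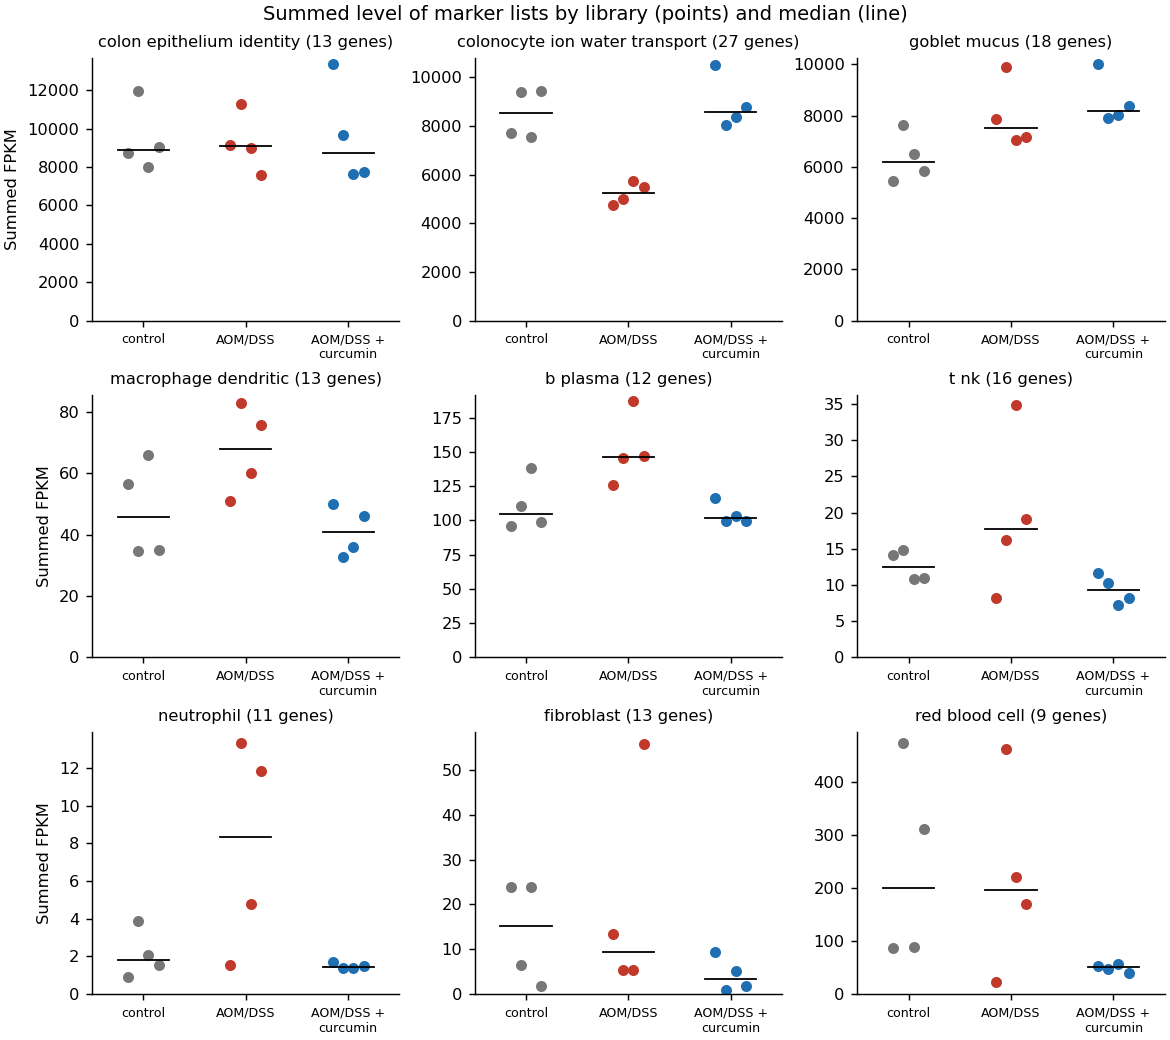
Summed FPKM of 9 marker lists in each of the 12 libraries (points) with the group median (line); every vertical axis starts at 0. Ion and water transport genes are higher in all 4 curcumin than in all 4 AOM/DSS libraries, the macrophage and B and plasma cell sums are lower, and the epithelial identity sums overlap. The B and plasma cell list also holds Xbp1, and its sum is not a measure of those cells alone.

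The metallothioneins Mt1 and Mt2, small cysteine-rich proteins that bind zinc and copper and are switched on by the zinc sensor Mtf1, were higher with curcumin. Of 12 tested genes of metallothioneins and zinc handling 2 rose and 0 fell, and the list's median was -0.057. The RefSeq promoter windows of both risers (build GRCm38.p6, 250 bases before to 50 after the start) are shown because they hold the core of the metal response element, TGCNCNC on either strand, given in capitals. Mt1 (chr8:94178839-94179138, plus strand) has 3 matches and Mt2 (chr8:94172368-94172667, plus strand) 6. At least 1 match lies in 50.4% of all 27025 windows, at least 3 in 6.95% and at least 6 in 0.207%, so that a match is a description and not a site. Windows of tested genes hold a match in 59.5%. Among called genes named by the rule, the first window holds one in 19 of 31 that rose and 11 of 15 that fell.
Mt1: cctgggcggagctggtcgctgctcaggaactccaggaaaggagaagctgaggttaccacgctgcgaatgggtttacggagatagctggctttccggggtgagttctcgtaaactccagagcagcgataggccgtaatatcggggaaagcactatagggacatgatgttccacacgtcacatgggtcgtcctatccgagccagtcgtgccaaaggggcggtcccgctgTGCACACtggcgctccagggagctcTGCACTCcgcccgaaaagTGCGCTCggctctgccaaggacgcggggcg
Mt2: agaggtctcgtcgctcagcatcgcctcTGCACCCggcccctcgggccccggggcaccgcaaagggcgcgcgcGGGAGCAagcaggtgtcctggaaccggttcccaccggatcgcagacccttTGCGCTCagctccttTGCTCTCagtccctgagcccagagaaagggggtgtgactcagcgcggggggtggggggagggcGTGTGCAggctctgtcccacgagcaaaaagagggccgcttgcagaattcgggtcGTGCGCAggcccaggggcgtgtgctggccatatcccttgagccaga

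Mt1 was at 114, 260.2, 97.5 and 149.9 FPKM in AOM/DSS and 904, 1104, 383 and 396 in curcumin (log2 difference 2.1, SE 0.46, adjusted p = 0.0457; 2.53 within the GC-rich and 1.68 within the AT-rich libraries). Mt2 was at 22.2, 139.7, 39.8 and 73.1 against 499.7, 637, 286 and 312 (log2 difference 2.88, SE 0.57, adjusted p = 0.0283; 3.31 within the GC-rich and 2.45 within the AT-rich libraries). Curcumin replicates 0 and 1 were the highest libraries of both genes and AOM/DSS replicate 1 the highest of its group, and the groups did not overlap. Mt2 shares 73.5% of its exon bases with Gm45774 on the opposite strand, and without a stated strand setting their reads cannot be told apart. Control means were 164 ± 86.5 for Mt1 and 59.3 ± 33.7 for Mt2, and AOM/DSS minus control was -0.01 (adjusted p = 0.995) and 0.15 (adjusted p = 0.935). The other metallothioneins tested, Mt3 (-0.85, adjusted p = 0.623) and Mt4 (-0.46, adjusted p = 0.891), were lower in mean and did not pass. The zinc importer Slc39a4 (-0.99, adjusted p = 0.0798), the exporter Slc30a1 (0.24, adjusted p = 0.608) and Mtf1 itself (-0.11, adjusted p = 0.833) did not pass either. The call of Mt1 ended when control 2 or 3, AOM/DSS 0, 2 or 3 or any 1 curcumin library was left out (adjusted p up to 0.137). The call of Mt2 ended when AOM/DSS 0 or 2 or any 1 curcumin library was left out (adjusted p up to 0.0925).

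Enzymes that reduce carbonyls and cleave esters formed the detoxification group with the most calls. Of 23 tested carbonyl reductases, aldo-keto reductases, aldehyde dehydrogenases and carboxylesterases 6 rose and 0 fell, 20 were higher in mean, 12 were higher without overlap, and the median difference was 0.63. The shares over all tested genes were 0.765% called higher and 4.96% higher without overlap. Cbr3, a carbonyl reductase, was at 20.1, 22.5, 13.0 and 10.2 FPKM in AOM/DSS and 91.1, 126, 72.9 and 39.1 in curcumin (log2 difference 2.2, SE 0.31, adjusted p = 0.00561), and the related Cbr1 at 254, 249.7, 251 and 187 against 675, 593, 425 and 372 (log2 difference 1.1, SE 0.19, adjusted p = 0.0145). The aldo-keto reductase Akr1b8, which clears reactive aldehydes, was at 41.2, 58.1, 48.6 and 33.8 against 179, 199.5, 205 and 141 (log2 difference 1.98, SE 0.26, adjusted p = 0.00342). All curcumin values of these 3 genes lay above all AOM/DSS values, and curcumin replicate 3 was the lowest of its group. Akr1b7 was at 2.37, 1.66, 2.72 and 3.38 against 12.9, 10.5, 7.6 and 8.06 (log2 difference 1.6, SE 0.22, adjusted p = 0.00398), with 27.2% of its exon bases shared with Gm13857. The carboxylesterases Ces2a and Ces2c, which hydrolyse ester drugs and lipids in the gut, were at 95.5, 72.4, 90.6 and 125 against 329.6, 163, 301 and 195 and at 136, 107, 148 and 203 against 484, 276, 383 and 316 (1.32, adjusted p = 0.0163, and 1.29, adjusted p = 0.0176). Within GC groups Cbr3, Akr1b8, Akr1b7, Ces2a and Ces2c differed from 1.47 to 2.28 within the GC-rich libraries and from 1.0 to 2.12 within the AT-rich libraries.

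The same enzymes did not pass the threshold between AOM/DSS and control. AOM/DSS minus control was 0.35 for Cbr3 (adjusted p = 0.680), -0.32 for Akr1b8 (adjusted p = 0.641) and -0.17 for Ces2a (adjusted p = 0.796). Curcumin minus control passed for Cbr3 (2.55, adjusted p = 0.00552), Akr1b8 (1.67, adjusted p = 0.0348) and Akr1b7 (1.33, adjusted p = 0.0367) and not for Ces2a (1.16, adjusted p = 0.0778). That comparison called 17 of all tested genes (0.145%), 11 of them higher (0.0935%) and 6 lower (0.051%). The call of Cbr1 ended when curcumin 1 was left out (adjusted p up to 0.0523). The call of Ces2a ended when curcumin 0 or 2 was left out (adjusted p up to 0.0602). The call of Ces2c ended when curcumin 0 or 2 was left out (adjusted p up to 0.0638).

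Among 20 genes of the Nrf2 antioxidant response 1 rose, the glutathione synthesis enzyme Gclc, at 20.4, 17.6, 23.4 and 25.7 FPKM in AOM/DSS and 36.7, 66.4, 41.4 and 33.4 in curcumin (log2 difference 0.96, SE 0.19, adjusted p = 0.0265; 1.34 within the GC-rich and 0.58 within the AT-rich libraries), and the median was 0.22. The quinone reductase Nqo1 was at 22.8, 14.4, 25.3 and 27.4 against 49.5, 48.5, 59.9 and 30.4, with no overlap, and missed the threshold (log2 difference 1.03, SE 0.24, adjusted p = 0.0621). It passed with the GC group as a covariate (adjusted p = 0.0445), after removal of each library's GC trend (0.0397) and without control 1 (0.0433) or curcumin 3 (0.0370). Its curcumin minus control difference was 1.42 (adjusted p = 0.0387). The other antioxidant genes named for any value did not pass: Gclm (0.42, adjusted p = 0.114), Txnrd1 (0.19, adjusted p = 0.435) and Hmox1 (0.36, adjusted p = 0.487). The core of the antioxidant response element, TGACNNNGC on either strand, lies in 12.5% of all promoter windows and 15.2% of those of tested genes. Among called genes named by the rule it lies in the first window of 4 of 31 that rose (Abcb1a, Ckmt2, Mt2 and S100g) and 3 of 15 that fell (Ceacam10, Hsph1 and Ssh2), and its letters are not in the windows of Cbr3, Akr1b8 and Nqo1. The call of Gclc ended when AOM/DSS 0 or 1 or curcumin 2 was left out (adjusted p up to 0.0729).

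Of 14 tested genes on the cytochrome P450 list, which includes the P450 reductase Por, 2 rose and 0 fell (median 0.49). Cyp2d12 was at 16.7, 33.7, 21.6 and 13.7 FPKM in AOM/DSS and 118, 105, 87.6 and 71.8 in curcumin (log2 difference 2.16, SE 0.30, adjusted p = 0.00497), and Cyp4f16, an enzyme of fatty acid hydroxylation, at 38.8, 35.4, 37.9 and 39.3 against 126, 67.03, 82.9 and 85.9 (log2 difference 1.2, SE 0.16, adjusted p = 0.00434). For both genes the groups did not overlap, and reads of Cyp2d12 may be split among its near-identical Cyp2d relatives. Of 28 conjugating enzymes 27 were higher in mean (median 0.42) and 1 rose, the microsomal glutathione transferase Mgst2, at 157, 167, 190.3 and 185 against 398, 307, 327 and 268 (log2 difference 0.88, SE 0.15, adjusted p = 0.0145). Among 12 ABC transporters (median 0.30) the P-glycoproteins Abcb1a and Abcb1b, which pump drugs out of the cell, rose. Abcb1a was at 81.6, 55.4, 112 and 103 against 264, 209.5, 242 and 221 (log2 difference 1.44, SE 0.23, adjusted p = 0.0118), and Abcb1b, a close copy whose reads may be split with it, at 3.28, 1.99, 3.83 and 3.07 against 9.54, 7.87, 7.51 and 6.74 (log2 difference 1.15, SE 0.22, adjusted p = 0.0235). Of 16 xenobiotic and lipid receptors 1 rose, Nr1i3, the constitutive androstane receptor (median -0.0054). Nr1i3 was at 3.17, 4.97, 3.21 and 1.66 against 10.9, 10.4, 9.34 and 7.71 (log2 difference 1.36, SE 0.23, adjusted p = 0.0145), but shares 74.9% of its exon bases with Tomm40l on the opposite strand and is uncertain. Within GC groups these 6 genes differed from 1.1 to 2.18 within the GC-rich libraries and from 0.66 to 2.14 within the AT-rich libraries. The call of Mgst2 ended when curcumin 2 was left out (adjusted p up to 0.0507). The call of Abcb1b ended when curcumin 0, 1 or 2 was left out (adjusted p up to 0.0815). The call of Nr1i3 ended when curcumin 0 or 1 was left out (adjusted p up to 0.0512).

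Genes of the circadian clock changed in both directions. In the clock, the activators Arntl, Clock and Npas2 bind E-boxes and drive the repressors Per, Cry, Nr1d and Ciart and the output factors Dbp and Tef, while Nfil3 binds the same D-boxes as Dbp and Tef and opposes them. Of 17 tested clock genes 6 rose and 2 fell, with a median of 0.79. The RefSeq window of Ciart is shown for its E-boxes, CACGTG, in capitals (chr3:95882179-95882478, minus strand, GRCm38.p6). It holds 3, where 7.24% of all windows and 10.5% of those of tested genes hold at least 1, and 0.0888% of all windows at least 3. Tef has 1 in each of its 2 windows, and the letters are not in the windows of Dbp and Nfil3. D-boxes (TTANNTAA, in 6.08% of all windows and 3.55% of those of tested genes) were matched once in the first window of Tef and are not in that of Ciart. Sequence outside the windows was not searched for either motif.
Ciart: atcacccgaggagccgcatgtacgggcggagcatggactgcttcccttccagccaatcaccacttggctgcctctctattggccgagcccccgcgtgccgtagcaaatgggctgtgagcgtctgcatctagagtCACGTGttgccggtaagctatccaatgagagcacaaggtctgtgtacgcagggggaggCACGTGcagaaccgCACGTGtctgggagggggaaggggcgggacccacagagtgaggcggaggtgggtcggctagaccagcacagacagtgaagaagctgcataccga

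Ciart was at 1.39, 6.69, 0.750 and 2.88 FPKM in AOM/DSS and 19.8, 21.6, 13.3 and 14.1 in curcumin (log2 difference 2.42, SE 0.40, adjusted p = 0.0132; 2.34 within the GC-rich and 2.5 within the AT-rich libraries). Dbp was at 7.65, 26.6, 2.03 and 12.4 against 73.7, 60.8, 42.9 and 44.6 (log2 difference 2.47, SE 0.51, adjusted p = 0.0347; 2.14 within the GC-rich and 2.81 within the AT-rich libraries) and shares 18.0% of its exon bases with Sphk2, and Tef was at 11.9, 28.0, 7.0 and 17.2 against 43.01, 50.97, 41.5 and 48.6 (log2 difference 1.62, SE 0.30, adjusted p = 0.0207; 1.31 within the GC-rich and 1.93 within the AT-rich libraries). AOM/DSS replicate 1 was the highest and replicate 2 the lowest AOM/DSS library for all 3 genes, and curcumin libraries lay together above them. The repressors Nr1d2 (1.01, adjusted p = 0.0175) and Cry2 (0.79, adjusted p = 0.0145) also rose. Nfil3 was at 2.4, 1.62, 4.77 and 4.2 against 0.322, 0.463, 0.809 and 0.544 (log2 difference -1.41, SE 0.24, adjusted p = 0.0145; -1.1 within the GC-rich and -1.71 within the AT-rich libraries) and Npas2 at 8.46, 6.26, 12.2 and 7.58 against 4.91, 3.45, 3.0 and 2.42 (log2 difference -1.11, SE 0.20, adjusted p = 0.0192; -0.69 within the GC-rich and -1.52 within the AT-rich libraries). Nfil3 reached 1 FPKM only in the AOM/DSS libraries of the 8, so it was tested through the group where it was high. Per3 (1.33, adjusted p = 0.0621), Per2 (0.92, adjusted p = 0.123) and Arntl (-0.66, adjusted p = 0.337) did not pass.

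Control means were 70.99 ± 27.5 FPKM for Dbp, 21.1 ± 8.93 for Ciart and 57.03 ± 12.3 for Tef, and curcumin minus control was -0.30 (adjusted p = 0.854), -0.21 (adjusted p = 0.867) and -0.28 (adjusted p = 0.744). Such genes swing through the day in mice. The hour at which each colon was taken is not given in the sources used here, and its part in these differences was not tested. The call of Dbp ended when control 2 or 3, AOM/DSS 0 or 3 or any 1 curcumin library was left out (adjusted p up to 0.117). The call of Tef ended when AOM/DSS 0 or any 1 curcumin library was left out (adjusted p up to 0.0658). The call of Nfil3 ended when curcumin 0 or 1 was left out (adjusted p up to 0.0512). The call of Npas2 ended when curcumin 1, 2 or 3 was left out (adjusted p up to 0.0676). The call of Nr1d2 ended when curcumin 1, 2 or 3 was left out (adjusted p up to 0.0602). The call of Cry2 ended when curcumin 1 was left out (adjusted p up to 0.0511).

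Heat shock genes and most immediate early genes were lower in mean. All 14 tested heat shock genes lay below AOM/DSS in mean (median -0.70), 3 without overlap, and 2 fell. Among all tested genes 4.25% were lower without overlap and 0.357% were called lower. Hsph1, a chaperone of the Hsp110 family, was at 99.9, 32.9, 13.2 and 61.2 FPKM in AOM/DSS and 4.52, 6.45, 8.67 and 10.1 in curcumin (log2 difference -2.36, SE 0.50, adjusted p = 0.0406; -3.19 within the GC-rich and -1.52 within the AT-rich libraries). AOM/DSS replicate 0 was the highest and replicate 2 close to the curcumin libraries. Hspa4l, of the same family, was at 18.4, 20.2, 11.7 and 20.7 against 6.04, 6.24, 8.63 and 9.13 (log2 difference -1.13, SE 0.18, adjusted p = 0.0118; -1.51 within the GC-rich and -0.75 within the AT-rich libraries). The inducible chaperones Hspa1a (-2.81, adjusted p = 0.225) and Hspa1b (-2.70, adjusted p = 0.227) did not pass. Of 17 immediate early genes 16 were lower in mean (median -0.62) and 1 fell, the nuclear receptor Nr4a1, at 4.82, 6.42, 7.89 and 2.81 against 2.03, 2.23, 1.3 and 1.41 (log2 difference -1.19, SE 0.24, adjusted p = 0.0301; -1.07 within the GC-rich and -1.3 within the AT-rich libraries). Of 19 genes of the unfolded protein response 5 were higher and 14 lower in mean and 0 were called (median -0.10), with Ddit3 (0.50, adjusted p = 0.279) and Dnajb9 (0.47, adjusted p = 0.460). The call of Hsph1 ended when control 3, AOM/DSS 0, 1 or 3 or any 1 curcumin library was left out (adjusted p up to 0.132). The call of Nr4a1 ended when AOM/DSS 0, 1 or 2 or any 1 curcumin library was left out (adjusted p up to 0.105).

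Cell cycle genes were lower in mean as a group, with 1 call. Of 29 tested, 28 were lower in mean (median -0.50), 1 was without overlap and 1 fell, E2f2, a transcription factor of S-phase entry. E2f2 was at 6.05, 8.04, 9.57 and 5.9 FPKM in AOM/DSS and 2.07, 1.31, 1.69 and 1.93 in curcumin (log2 difference -1.6, SE 0.27, adjusted p = 0.0145; -1.58 within the GC-rich and -1.61 within the AT-rich libraries), and its control mean was 1.75 ± 1.32. The proliferation marker Mki67 was at 13.1, 18.6, 8.02 and 14.6 against 5.63, 8.15, 10.2 and 13.3 and did not pass (log2 difference -0.50, SE 0.36, adjusted p = 0.574), with a difference of -1.09 within the GC-rich and 0.09 within the AT-rich libraries. Ccnd1, a cyclin of G1, was at 26.1, 32.5, 22.4 and 30.7 against 14.8, 21.5, 19.99 and 16.9 (log2 difference -0.58, SE 0.19, adjusted p = 0.171) and did not pass although its groups did not overlap. Myc was at 12.3, 8.21, 10.2 and 16.1 against 10.6, 16.04, 10.6 and 10.7 (log2 difference 0.04, SE 0.27, adjusted p = 0.967), with overlapping groups, and its sign turned when libraries were scaled to a common sum (-0.0168). The call of E2f2 ended when curcumin 1 was left out (adjusted p up to 0.0509).

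Of 14 Wnt and stem cell genes 0 were called (median -0.20). Tcf7 (-0.67, adjusted p = 0.277) and Axin2 (-0.66, adjusted p = 0.276) had the largest differences, and the stem cell receptor Lgr5 was at 1.21, 1.25, 0.629 and 3.57 against 1.41, 2.46, 2.05 and 2.65 (log2 difference 0.33, SE 0.27, adjusted p = 0.638). Of 18 genes of Myc and ribosome biogenesis 0 were called (median -0.088), with Cad (-0.40, adjusted p = 0.563) and Rrp9 (0.37, adjusted p = 0.674). Among 11 fetal-like repair genes (median -0.37) 1 fell, the YAP target Cyr61, at 2.56, 3.07, 2.41 and 3.01 against 0.685, 0.707, 1.1 and 0.921 (log2 difference -1.02, SE 0.17, adjusted p = 0.0145; -1.17 within the GC-rich and -0.88 within the AT-rich libraries). In the curcumin group Cyr61 reached 1 FPKM only in replicate 2, so it was tested mainly through its AOM/DSS values. Of 14 genes of TGF-beta and BMP signalling 13 were lower in mean (median -0.38) and 1 fell, Pmepa1, a feedback inhibitor of TGF-beta signalling, at 6.3, 11.1, 9.0 and 19.3 against 3.4, 2.96, 3.05 and 2.91 (log2 difference -1.5, SE 0.24, adjusted p = 0.0110; -1.17 within the GC-rich and -1.84 within the AT-rich libraries). The 4 curcumin values of Pmepa1 lay close to the control mean of 3.19 ± 0.494. Of 13 genes of EGF receptor ligands and their targets 0 were called (median -0.099), with Hbegf (-1.13, adjusted p = 0.0673) and Etv5 (-0.72, adjusted p = 0.421), and of 21 p53 and apoptosis genes 0 (median 0.0039), with Gadd45g (-0.89, adjusted p = 0.287) and Gadd45a (0.61, adjusted p = 0.136). With the GC group as a covariate Hbegf (adjusted p = 0.0357) and Gadd45g (adjusted p = 0.0157) passed. The call of Cyr61 ended when curcumin 1 was left out (adjusted p up to 0.0509).

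Genes of fatty acid oxidation were higher in mean, with 2 calls. All 24 tested genes of fatty acid oxidation and PPAR targets were higher in mean with curcumin (median 0.32), 7 without overlap, and 2 rose. The shares over all tested genes were 4.96% higher without overlap and 0.765% called higher. Slc25a20, the mitochondrial carnitine carrier, was at 94.6, 159, 152 and 153 FPKM in AOM/DSS and 269, 217, 211 and 241 in curcumin (log2 difference 0.77, SE 0.16, adjusted p = 0.0338; 0.97 within the GC-rich and 0.56 within the AT-rich libraries). Creb3l3, a membrane-bound transcription factor of lipid handling, was at 0.759, 3.94, 2.9 and 5.46 against 23.9, 6.1, 13.3 and 15.4 (log2 difference 1.89, SE 0.41, adjusted p = 0.0462; 2.17 within the GC-rich and 1.61 within the AT-rich libraries), with AOM/DSS replicate 3 and curcumin replicate 1 nearly touching. Of 27 respiratory chain genes 25 were higher in mean (median 0.15) and 0 were called, with Ndufa1 (0.29, adjusted p = 0.488) and Ndufb9 (0.25, adjusted p = 0.450). In retinoid handling (10 genes, 5 higher and 5 lower in mean, median 0.17) 2 rose, the carrier Rbp2, at 29.3, 23.8, 36.1 and 29.8 against 109, 91.2, 96.3 and 69.1 (log2 difference 1.58, SE 0.19, adjusted p = 0.00313; 1.87 within the GC-rich and 1.29 within the AT-rich libraries), and the reductase Retsat, at 46.1, 33.1, 45.9 and 45.5 against 69.2, 66.2, 79.3 and 65.9 (log2 difference 0.71, SE 0.13, adjusted p = 0.0175; 0.78 within the GC-rich and 0.65 within the AT-rich libraries). The largest difference of this list was that of the dehydrogenase Dhrs9, at 8.1, 14.4, 16.9 and 29.9 against 3.6, 1.85, 3.83 and 4.86, lower without overlap and not past the threshold (log2 difference -1.93, SE 0.46, adjusted p = 0.0641). Retsat shares 18.4% of its exon bases with Gm45053 on the opposite strand. Rbp2 was also the 1 called gene of 7 tested small-intestinal enterocyte genes.

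Creatine genes split in direction: mitochondrial creatine kinase Ckmt2 rose, from 3.29, 2.71, 3.87 and 2.84 to 11.9, 6.27, 12.1 and 9.77 FPKM (log2 difference 1.37, SE 0.17, adjusted p = 0.00326; 1.28 within the GC-rich and 1.46 within the AT-rich libraries), and the cytosolic kinase Ckb fell, from 7.58, 5.69, 4.13 and 11.4 to 2.1, 3.39, 1.85 and 2.32 (log2 difference -1.21, SE 0.24, adjusted p = 0.0283; -1.04 within the GC-rich and -1.38 within the AT-rich libraries). Of 17 genes of fatty acid synthesis 1 fell (median -0.066), the desaturase Scd1, at 9.61, 10.5, 11.9 and 16.7 against 5.88, 4.83, 6.38 and 6.69 (log2 difference -0.90, SE 0.17, adjusted p = 0.0199; -0.80 within the GC-rich and -1.0 within the AT-rich libraries). Of 19 genes of cholesterol synthesis 0 were called (median 0.40), with Insig1 (0.95, adjusted p = 0.212) and Msmo1 (0.61, adjusted p = 0.194). Of 21 genes of glycolysis and hypoxia 0 were called (median -0.0042), with Bnip3 (0.80, adjusted p = 0.212) and Slc16a3 (-0.47, adjusted p = 0.674), and of 10 genes of iron and heme 0 (median 0.11), with Slc40a1 (0.60, adjusted p = 0.174) and Tfrc (-0.59, adjusted p = 0.320). The call of Slc25a20 ended when control 2 or 3, AOM/DSS 3 or any 1 curcumin library was left out (adjusted p up to 0.109). The call of Creb3l3 ended when any 1 control library, AOM/DSS 0, 1 or 2 or curcumin 0, 2 or 3 was left out (adjusted p up to 0.134). The call of Retsat ended when curcumin 2 was left out (adjusted p up to 0.0672). The call of Ckb ended when AOM/DSS 0 or curcumin 0, 2 or 3 was left out (adjusted p up to 0.0985). The call of Scd1 ended when curcumin 0, 1 or 2 was left out (adjusted p up to 0.0684).

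**Figure D4:**
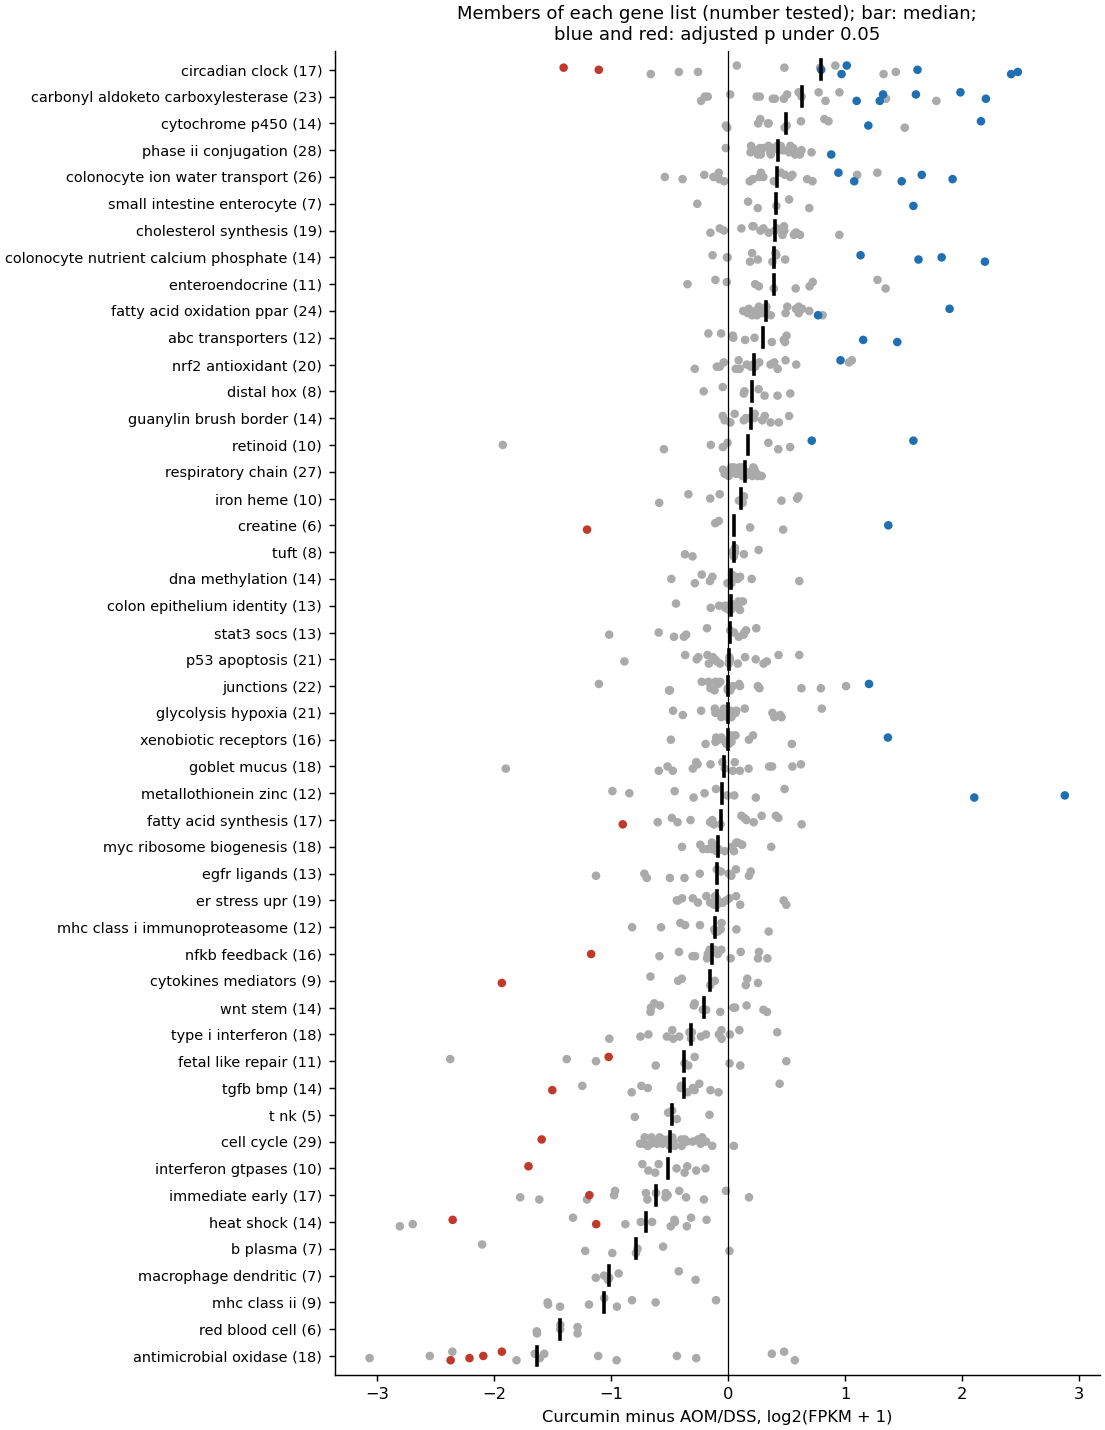
Log2 difference (curcumin minus AOM/DSS, log2(FPKM + 1)) of each tested member of the gene lists with at least 5 tested members, with the median as a bar and called genes in blue (higher) or red (lower). Carbonyl and clock genes lie to the right with medians of 0.63 and 0.79, and oxidase, MHC class II and macrophage genes to the left with medians of -1.63, -1.06 and -1.02.

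Goblet, enteroendocrine, tuft and distal Hox lists held no calls. Over the 33 lists with 0 genes called by limma, 62 of 342 tested genes had an unadjusted p under 0.05, 22 higher and 40 lower. Over all tested genes 1696 of 11759 (14.4%) did, so the count is a description and not a result about these lists. Among the 62, cholesterol synthesis held 8, all higher, and MHC class II 6 and the macrophage and dendritic list 5, all lower. Goblet cell genes held 5, of which 2 were higher and 3 lower. Of 18 goblet cell genes 0 were called (median -0.041, and -0.39 within the GC-rich against 0.23 within the AT-rich libraries). The mucin Muc2 was at 634, 387, 265 and 412 FPKM in AOM/DSS and 458, 310.0, 495 and 501 in curcumin (log2 difference 0.10, SE 0.23, adjusted p = 0.904), with overlapping groups. Retnlb (-1.9, adjusted p = 0.348) and Zg16 (0.62, adjusted p = 0.159) had the largest goblet differences. Of 11 enteroendocrine genes 0 were called (median 0.39), with the hormones Insl5, at 61.7, 34.5, 25.5 and 49.4 against 123, 63.8, 112 and 136 (log2 difference 1.35, SE 0.46, adjusted p = 0.193), and Gcg (1.28, adjusted p = 0.179). Of 8 tuft cell genes 0 were called (median 0.052), with Avil (-0.37, adjusted p = 0.678), and of 14 genes of guanylins and the brush border 0 (median 0.20), with Anpep (0.52, adjusted p = 0.241) and Guca2a (0.43, adjusted p = 0.731). DNA methylation genes, 14 in number, had 0 calls and a median of 0.026, with Gadd45a, given above, and Uhrf1 (-0.49, adjusted p = 0.664). The 8 distal Hox genes had 0 calls and a median of 0.20, with Hoxd13 (0.53, adjusted p = 0.436) and Hoxd10 (0.42, adjusted p = 0.710), and AOM/DSS replicate 3 had the lowest summed level of this list, 216 FPKM against 359 to 517 in the other 7 libraries. The Y-linked gene Eif2s3y was present in both groups, at 23.7 to 44.1 FPKM in all 8 libraries (log2 difference 0.27, SE 0.16, adjusted p = 0.498), with Kdm5d (0.12, adjusted p = 0.766).

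Markers of other cell types in the scrapings had 0 calls by limma. Summed fibroblast markers were 5.27 to 55.8 FPKM in AOM/DSS and 0.930 to 9.40 in curcumin, with Dcn (-0.92, adjusted p = 0.479) as the tested member. Smooth muscle sums were 18.9 to 37.6 and 16.9 to 21.8, with Tagln (-0.21, adjusted p = 0.594) and Mylk (-0.16, adjusted p = 0.744), and endothelial sums 3.74 to 10.2 and 5.30 to 6.31, with Pecam1 (0.75, adjusted p = 0.0974). Tagln shares 67.9% of its exon bases with Gm48529 on the opposite strand. Red blood cell sums were 23.0 to 464 in AOM/DSS and 38.8 to 56.0 in curcumin, with the near-identical copies Hba-a1 and Hba-a2 (-1.64, adjusted p = 0.281 for Hba-a2). The only tested neutrophil marker was Cxcr2 (0.19, adjusted p = 0.595). Mast cell sums were 13.0 to 25.8 and 11.6 to 21.3, with Mcpt1 (-0.59, adjusted p = 0.565) and Cma1 (0.19, adjusted p = 0.789), neuron and glia sums 1.12 to 2.28 and 1.64 to 2.40, and adipocyte sums 3.72 to 17.0 and 9.37 to 15.3, with Fabp4 (-1.47, adjusted p = 0.158) and Cidec (0.92, adjusted p = 0.196). Squamous markers, of which 3 of 19 were tested, summed to 473 to 739 and 380 to 720, with Krt14 (-1.5, adjusted p = 0.141) and Sfn (-0.72, adjusted p = 0.183). Sfn alone was at 147 to 223 FPKM in AOM/DSS and 82.0 to 162 in curcumin. Krt14 was at 1.23 to 11.1 and 0.555 to 0.965, so the sum is not a measure of squamous cells.

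Several of the largest differences fell outside the gene groups. Tsku, a secreted proteoglycan, was at 7.97, 5.1, 9.4 and 8.01 FPKM in AOM/DSS and 35.3, 41.1, 34.99 and 22.6 in curcumin (log2 difference 2.0, SE 0.23, adjusted p = 0.00162; 2.4 within the GC-rich and 1.59 within the AT-rich libraries), and Aldh1a7, an aldehyde dehydrogenase, at 6.93, 4.53, 8.63 and 7.05 against 20.9, 21.96, 20.7 and 21.0 (log2 difference 1.53, SE 0.15, adjusted p = 0.000963; 1.76 within the GC-rich and 1.31 within the AT-rich libraries). The 4 curcumin libraries of Aldh1a7 had an SD of 0.575 FPKM. Tsku in AOM/DSS differed from control by -0.01 (adjusted p = 0.992) and in curcumin by 1.99 (adjusted p = 0.00552). Cml5, an N-acetyltransferase-like gene, was at 0.103, 0, 0.354 and 0.0679 against 2.28, 4.26, 3.33 and 3.3 (log2 difference 1.91, SE 0.25, adjusted p = 0.00363; 1.98 within the GC-rich and 1.84 within the AT-rich libraries). Of the 8 libraries only those of curcumin reached 1 FPKM, so Cml5 was tested through the group where it was high. It shares 13.7% of its exon bases with Nat8f6 on the same strand. Among the genes that fell, the slingshot phosphatase Ssh2, which activates cofilin, was at 7.68, 7.67, 7.93 and 6.13 against 2.82, 2.92, 3.06 and 3.44 (log2 difference -1.04, SE 0.11, adjusted p = 0.000963; -1.16 within the GC-rich and -0.91 within the AT-rich libraries), and the adhesion receptor Adgrf1 at 3.69, 11.7, 7.27 and 7.57 against 2.74, 1.75, 2.02 and 2.34 (log2 difference -1.34, SE 0.25, adjusted p = 0.0192; -1.27 within the GC-rich and -1.41 within the AT-rich libraries). The uncharacterised Gm14137 also fell (log2 difference -0.94, SE 0.19, adjusted p = 0.0301; -0.85 within the GC-rich and -1.04 within the AT-rich libraries). Reads of the small RNA genes Snora61 (1.57, adjusted p = 0.0111) and Mir6381 (-1.5, adjusted p = 0.0209) are uncertain, since all bases of Snora61 lie in Snhg12 and 27.6% of those of Mir6381 in Gbp2. In curcumin replicates 1 and 2 Mir6381 was below 1 FPKM, so it was tested mainly through its AOM/DSS values. The call of Adgrf1 ended when curcumin 1 or 2 was left out (adjusted p up to 0.0672). The call of Gm14137 ended when AOM/DSS 1, 2 or 3 or any 1 curcumin library was left out (adjusted p up to 0.0923). The call of Mir6381 ended when curcumin 2 was left out (adjusted p up to 0.0672).

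Set beside control, the 40 genes with the largest differences showed different levels in the 3 groups. S100g, Slc20a1, Dbp, Ciart and Tef had control and curcumin means above the AOM/DSS mean. Cbr3, Mt1, Mt2, Tsku and Akr1b8 had curcumin means above both others. AOM/DSS against control called 151 genes (1.28%), 57 higher (0.485%) and 94 lower (0.799%), and shares the 4 AOM/DSS libraries with the comparison of curcumin and AOM/DSS, so values are given side by side and no agreement between the comparisons is counted.

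**Figure D5:**
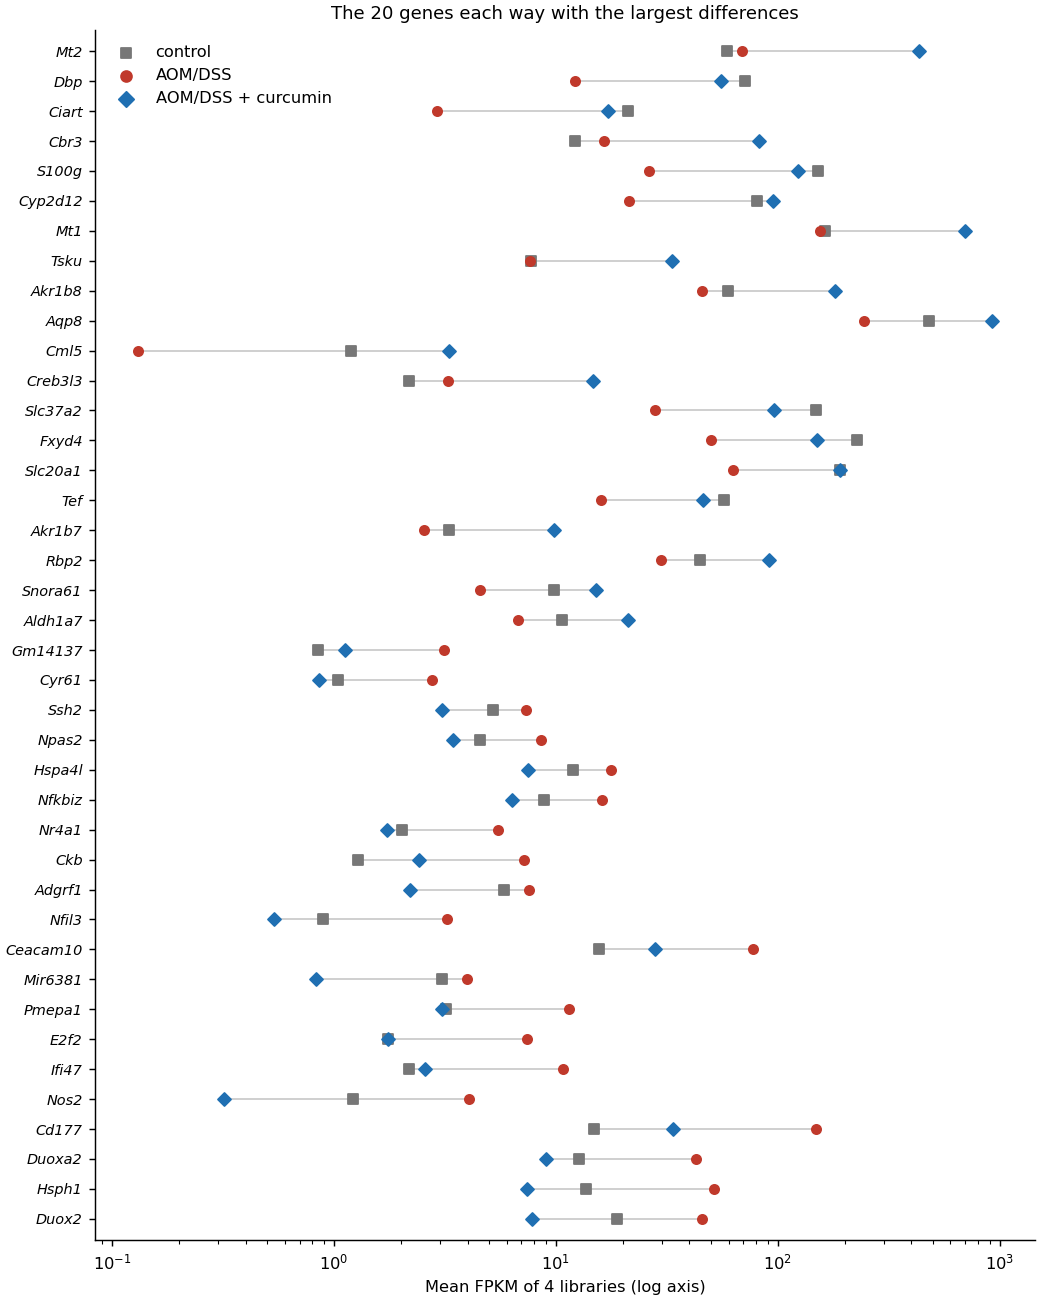
Mean FPKM over 4 libraries (log axis) in control (grey squares), AOM/DSS (red circles) and curcumin (blue diamonds) for the 20 genes each way with the largest differences between curcumin and AOM/DSS. The curcumin mean of S100g, 123, lies near the control mean of 151, and that of Cbr3, 82.3, lies above the control mean of 12.2.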

How the data were processed

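RNA from scraped colon epithelium was sequenced in 12 libraries, of which the 4 curcumin and 4 AOM/DSS libraries were compared and the 4 controls entered the same fit. The authors deposited FPKM per gene and library. Per the submitters' processing notes the build was mm9 and the tools, in roles not stated, included Bowtie2 2.2.6 and TopHat2 2.1.1, featureCounts 1.5.1, Picard, R 3.4.0 and DESeq2 1.14.1. The strand setting and annotation are not given in the sources used here. In the deposited FPKM all 19233 genes above 0 gave whole reads (tolerance 0.001), from which depth was recovered.

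The test was limma 3.58.1 (R 4.3.3) on log2(FPKM + 1) (group means of 3 groups, 9 residual degrees of freedom, intensity trend, Benjamini-Hochberg over 11759 genes, threshold 0.05), for genes at 1 FPKM or more in at least 4 of the 8 libraries. The test was tried on simulated data for 11759 genes of this comparison, where 76 of 100 2-fold changes and 98 of 100 4-fold changes were recovered beside 13 false calls. The changed genes were drawn only from those with a mean log2(FPKM + 1) above 2, so recovery of lower genes was not tried. Simulated noise was normal and independent between genes and libraries, without the GC groups of the real libraries. GC content was known for 11682 tested genes (99.35%). The members, the 58 gene lists and the tests were chosen with earlier results of these data known. Named genes were the 20 each way with the largest difference among called genes without overlap and with at least 2 FPKM in the higher group, up to 5 called members of a list, the 2 largest differences of a list without calls, and 25 set genes. Other genes (Cbr1, Nr1d2, Cry2, Per2, Per3, Arntl, Mt3, Mt4, Slc39a4, Slc30a1, Mtf1, Hspa1a, Hspa1b, Reg3b, Lyz1, Saa1, Saa2, Dhrs9 and those of the closing section) were chosen after their values were seen. Promoters came from RefSeq on GRCm38.p6, where 46 of 57 called genes named by the rule had a window. Overlap of exons was taken from the GRCm38 annotation by gene symbol, and is not given for every named gene that has it. The alternatives tried are given in the closing section. Genes below the filter were left out of the tests. The values of 3 genes are not reported here, although list counts, medians and sums include them.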

Additional observations from a re-analysis of the deposited data

Results flagged for a closer look

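Single libraries that lay far from the other 3 of their group were picked out where the gap to the nearest library, divided by the range of the group, exceeded Dixon's 95% critical value for 4 samples. Of 428 groups of 4 libraries examined, 23 (5.37%) did so, and chance gives about 1 in 20. Each value is followed by that of the nearest library, in FPKM.

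Among called genes, AOM/DSS replicate 1 had the highest Duox2 (71.46 against 38.73) and the lowest Retsat (33.14 against 45.46). AOM/DSS replicate 3 had the lowest Ssh2 (6.133 against 7.672), and AOM/DSS replicate 0 the lowest Slc25a20 (94.58 against 151.8). Curcumin replicate 0 had the highest Car4 (1702 against 1037) and Duoxa2 (18.72 against 6.698). Control replicate 3 had the highest Gjb5 (44.11 against 26.69). In none of these genes did the outlying library close the gap between the curcumin and AOM/DSS groups.

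Curcumin replicate 0 also stood above its group for Guca2a (2946 against 1931), the summed guanylin and brush border genes (6081 against 4348), H2-Eb1 (17.15 against 7.728) and Jchain (8.436 against 1.505). Curcumin replicate 1 was highest for Cad (5.88 against 3.604) and Myc (16.04 against 10.67), and curcumin replicate 2 highest for Slc40a1 (203.4 against 151.2) and lowest for Mcpt1 (0.4222 against 1.792).

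AOM/DSS replicate 3 was highest for the tuft cell gene Avil (11.52 against 3.763), the interferon target Ifit2 (12.45 against 2.247), the fibroblast gene Dcn (6.651 against 1.32), the summed fibroblast markers (55.83 against 13.4) and the antibody joining chain Jchain (53.04 against 8.047). AOM/DSS replicate 2 was highest for Hbegf (30.8 against 12.86). In the control group, replicate 1 was highest for Retnlb (102.1 against 8.656) and replicate 0 was lowest for Gadd45a (19.85 against 28.93).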

How the results depend on the processing

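Against 90 genes higher and 42 lower, limma called 284 and 203 with array weights, 186 and 95 with the GC group as a covariate, 166 and 84 after the GC trend of each library was removed, and 58 and 26 when fitted on the 8 libraries alone. With 2 libraries against 2 it called 8 and 6 within the GC-rich and 0 and 1 within the AT-rich libraries, fits with fewer samples. Leaving out 1 library at a time gave 38 to 103 higher and 15 to 48 lower genes. All 90 and 42 genes were also called with the GC covariate, and 81 and 41 by voom on the recovered reads, which called 91 and 48. Of 60 called genes, which were the 57 named by the rule with Cbr1, Nr1d2 and Cry2, 27 kept the call in all 12 fits that left out a library. The same replicate number does not tie libraries together in the labels, and deviations of same-numbered curcumin and AOM/DSS libraries correlated at 0.04 to 0.37 over genes, with numbers 0 and 3 closest to another number. With the replicate number as a block 62 genes were called higher and 27 lower. The other settings (pseudocounts of 0.1 and 0.5, no filter, a filter at 5 FPKM, a common sum, quantile normalization, no intensity trend) gave 71 to 130 higher and 30 to 49 lower genes. Of the named genes not called, 13 passed with array weights and 4 with the GC covariate. The sign turned in 16 cases, all of genes that were not called. Within the GC-rich libraries the differences were -0.43 for Hoxd10, 0.0255 for Tagln, 0.42 for Mcpt1, -0.30 for Cma1, -0.0601 for Kdm5d and -0.39 for Muc2, and within the AT-rich libraries -0.25 for Myc and 0.0901 for Mki67. Myc was at -0.0168 with a common sum and -0.12 with array weights, and the cause was not tested. Over the 12 fits that left out a library, the lowest and highest differences were -0.53 and 0.0095 for Avil and -0.0776 and 0.78 for Hoxd10. They were -0.10 and 0.20 for Myc and -0.10 and 0.31 for Muc2. Reads of 8644331 to 15968416 a library limit what can be seen in genes near 1 FPKM.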

Other observations

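Further called genes outside the groups described above were picked after their values were seen. Their differences within GC groups and their calls without single libraries are not given here. Ephx2, the soluble epoxide hydrolase that opens fatty acid epoxides, was at 8.82, 9.22, 8.49 and 11.8 FPKM in AOM/DSS and 24.6, 22.1, 26.4 and 23.3 in curcumin (log2 difference 1.25, SE 0.13, adjusted p = 0.000963). The fructose transporter Slc2a5 was at 1.12, 1.56, 0.451 and 2.68 against 4.62, 4.23, 4.41 and 5.39 (log2 difference 1.28, SE 0.24, adjusted p = 0.0208), and the serotonin transporter Slc6a4 at 8.83, 8.35, 10.1 and 5.07 against 20.8, 19.5, 18.3 and 21.4 (log2 difference 1.24, SE 0.23, adjusted p = 0.0192). Groups did not overlap for any of the 3 genes. Cipc, a repressor of Clock, was at 31.5, 28.9, 28.99 and 32.1 against 57.5, 51.1, 46.7 and 61.6 (log2 difference 0.81, SE 0.12, adjusted p = 0.00889).

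Among genes that fell, Tnfrsf1b, the second receptor of tumour necrosis factor, was at 6.26, 8.87, 6.76 and 8.76 FPKM in AOM/DSS and 4.24, 3.56, 3.71 and 4.17 in curcumin (log2 difference -0.81, SE 0.15, adjusted p = 0.0235). The collagen-binding integrin subunit Itga2 was at 4.01, 4.67, 5.27 and 6.72 against 1.9, 2.09, 2.37 and 2.84 (log2 difference -0.89, SE 0.19, adjusted p = 0.0407), and the zinc importer Slc39a10 at 2.71, 2.02, 2.34 and 3.48 against 0.538, 0.805, 1.09 and 1.32 (log2 difference -0.91, SE 0.16, adjusted p = 0.0165). In the curcumin group Slc39a10 reached 1 FPKM only in replicates 2 and 3, so it was tested mainly through its AOM/DSS values. The adjusted p-values are those of limma over 11759 genes.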
